A study of Homo sapiens with 5 samples.

Results

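The enzymes and assembly factors that copy chromosomal DNA were followed in HEK293 cells, a human embryonic kidney line, through 44 genes, chosen by name for origin licensing, the replicative helicase, the polymerases, the sliding clamp and its loader, single-strand binding, the lagging strand and nucleotide supply. These genes had 82 probe sets of a single gene symbol among the 54675 of the HG-U133 Plus 2.0 GeneChip array. Probe sets with a signal of 100 or more on at least 2 arrays entered the test, 33818 in all, of 14546 genes, with 79 probe sets of the 44 genes among them. Probe sets 208133_at of RFC1, 211213_at of ORC5 and 236546_at of POLA2 were too dim to test, and 4 further probe sets named for both PRIM2 and PRIM2BP were left out. In counts of genes, a gene was represented by its brightest tested probe set (highest average log2 signal). Every one of those 44 probe sets read at least 200 on all arrays, with a lowest signal of 316 and a highest of 17804.

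Replication is set up in G1 phase, when the origin recognition complex, CDC6 and CDT1 load the MCM2-7 helicase onto origins, and geminin (GMNN) then blocks reloading once S phase has begun. CDC45 and GINS join the helicase to make it active, polymerase alpha with primase lays down primers, and polymerases delta and epsilon extend them while held by the PCNA clamp, which the RFC complex loads. Many of these genes are known targets of E2F transcription factors. HEK293 cells carry the adenovirus E1A gene, whose product binds the retinoblastoma proteins that restrain E2F.

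The groups were HEK293-PRL-1, HEK293 cells stably overexpressing PRL-1, the small prenylated tyrosine phosphatase encoded by PTP4A1 (n = 2 arrays), and HEK293-vector, the same cells stably carrying empty pcDNA4 (n = 3 arrays). Cells of both groups grew in DMEM with serum and antibiotics, and each array held total RNA of a separate culture. A further PRL-1 array was dropped by the authors because its RNA showed no raised PRL-1 by qRT-PCR. Each group is a single stable line, so the transgene and other differences between the lines cannot be told apart, and a p-value here reflects variation among cultures alone.

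Every direction below refers to the arrays labelled PRL-1. The 4 PTP4A1 probe sets gave log2 fold changes of 0.06 to 0.15 (limma adjusted p from 0.737 to 0.892), and it is not known here which of them the construct's transcript would reach. Vector replicate 3 stood apart: the correlation of its log2 signals with the other arrays was 0.938 to 0.947, and up to 0.964 was reached between those. Its median signal was 166, the highest of the 5 arrays. Of 6 HEK293 markers, 5 were tested, with a summed signal of 51571 to 52084 on PRL-1 arrays and 51393 to 60097 on vector arrays. NEFM stayed under 100 on all arrays, and NEFL alone (221805_at) read 28915 to 34190. None of the markers' differences passed the test on 5 arrays. By limma, PAX2 was at -0.75 (206228_at, adjusted p = 0.341) and VIM at -0.53 (201426_s_at, adjusted p = 0.314). For both, the PRL-1 arrays read below all vector arrays. KRT18 was at 0.19 and NEFL at 0.02. KRT8, the furthest, was at 0.94 (adjusted p = 0.257), but without vector replicate 3 at 1.19 with a call (adjusted p = 0.00163). Of the markers of other cell types on the array, 2 of 5 for leukocytes, 4 of 6 for fibroblasts and 1 of 6 for endothelium were tested, and 2, 2 and 1 reached 200 on some array. PTPRC and CD14 of leukocytes, PDGFRB of fibroblasts and KDR, CLDN5, TEK and CDH5 of endothelium stayed under 100 on all arrays. The summed signal of the leukocyte list was 552 to 755 on PRL-1 arrays and 728 to 823 on vector arrays, that of the fibroblast list 1383 to 1669 and 1510 to 1653, and that of the endothelial list 472 to 542 and 591 to 871. The ratio of 3' to 5' signal of ACTB, a measure of RNA integrity, was 1.379 to 1.504 on PRL-1 arrays and 1.39 to 1.41 on vector arrays, and that of GAPDH 0.960 to 0.974 and 0.951 to 0.981.

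Upstream sequence was examined because E2F control is what many of these genes share. RefSeq promoters (GRCh38.p14) were matched by symbol for 38 of the 44 genes. GINS4, MCM4, MCM5, POLD3, RPA2 and RPA3 were not matched. The letters TTTCCCGC, TTTGGCGC, TTTCGCGC and TTTGCCGC, forms of the E2F site, were searched on both strands in the 250 bases before each start, and matches may overlap each other. They were present for 14 of the 38 genes (36.8%), against 928 of 27305 genes with a promoter in the same table (3.4%). Those 27305 genes were not limited to genes tested on the arrays, and base composition was not taken into account. Matched genes were ranked by the smallest limma p of any of their tested probe sets in the comparison of the groups. For RFC3, CDT1, TYMS, POLA2 and MCM7 that was not the brightest probe set. The windows of 50 bases below belong to the 8 genes ranked first and show the bases around the match. Each runs 5' to 3' on the gene's strand, with the matching letters in capitals.
RFC3: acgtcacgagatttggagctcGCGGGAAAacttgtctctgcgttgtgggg
CDT1: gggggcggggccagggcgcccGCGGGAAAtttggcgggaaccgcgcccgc
TYMS: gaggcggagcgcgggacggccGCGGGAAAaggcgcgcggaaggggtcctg
PCNA: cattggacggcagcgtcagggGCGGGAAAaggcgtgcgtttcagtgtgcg
MCM3: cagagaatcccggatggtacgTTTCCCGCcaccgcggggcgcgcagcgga
POLA2: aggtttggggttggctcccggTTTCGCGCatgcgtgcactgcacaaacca
MCM7: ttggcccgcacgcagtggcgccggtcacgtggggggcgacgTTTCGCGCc
MCM6: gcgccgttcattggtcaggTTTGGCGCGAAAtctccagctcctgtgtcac

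RFC3, CDT1, TYMS and PCNA held GCGGGAAA, the reverse complement of the letters in MCM3, whereas POLA2 and MCM7 held TTTCGCGC. The MCM6 window held 2 overlapping matches on opposite strands, TTTGGCGC and GCGCGAAA, of 4 in its 250 bases. On the plus strand the windows lay at chr13:33818073-33818122 (RFC3), chr16:88803733-88803782 (CDT1), chr18:657593-657642 (TYMS) and chr11:65261888-65261937 (POLA2). On the minus strand they lay at chr20:5126653-5126702 (PCNA), chr6:52284888-52284937 (MCM3), chr7:100101398-100101447 (MCM7) and chr2:135876503-135876552 (MCM6). Log2 fold changes, PRL-1 minus vector, had a median of 0.05 in the 14 genes with a match, 10 of them above 0, and of 0.16 in the 24 without, 19 of them above 0. A match is a description of the letters and not of a bound site.

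No replication gene passed the test between the groups. Most of their signals lay slightly above those of HEK293-vector cells, by amounts close to the spread between cultures. Of 79 probe sets 0 were called by limma at a Benjamini-Hochberg adjusted p of 0.05, where 65 of all 33818 probe sets (0.192%) were. At an unadjusted p of 0.05, 7 of 79 passed (8.86%), 5 higher and 2 lower in HEK293-PRL-1 cells, a share near the 9.72% of all probe sets. The test named in the methods passed 8 of 79 at an unadjusted p of 0.05, beside 8.59% of all probe sets, and 0 of all probe sets after adjustment. The smallest adjusted p of a replication probe set was 0.225, for RFC3 (204128_s_at).

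The direction was less even than the calls. The log2 fold change was above 0 for 31 of the 44 genes (70.5%), beside 44.8% of all genes. Its median was 0.10, with quartiles of -0.02 and 0.20, beside a median of -0.03 over all genes, with quartiles of -0.23 and 0.14. Both PRL-1 arrays read above all 3 vector arrays for 27 of 79 probe sets (34.2%, beside 12.8% of all), and both read below for 4 of 79 (5.06%, beside 16.1% of all). These counts carry no test of their own, and genes of 1 pathway do not vary independently. The 44 genes were also chosen with earlier results of these data known. The shares over all genes and probe sets were not matched for signal. The median signal of an array was 124 and 143 for PRL-1 and 135, 138 and 166 for vector. How far signal level bears on the gaps was not tested. In whole cultures a larger share of cells in S phase and more mRNA per cell cannot be told apart.

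Gene values ran between -0.24 for CDT1 and 0.43 for POLD1, with a median standard error of 0.126. The 95% interval reached a median of 0.29 to either side of its estimate. By the probe set that represents each gene, all 44 intervals lay between -1 and 1, with a highest upper bound of 0.88 for GINS1 and a lowest lower bound of -0.69 for GINS4. Over all 79 probe sets 72 intervals did so, and 7 reached beyond, those of CDT1 209832_s_at (-1.20 to -0.31) and of probe sets with low signals of MCM4, GINS2, POLD3, RPA1 and TYMS.

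**Figure D1:**
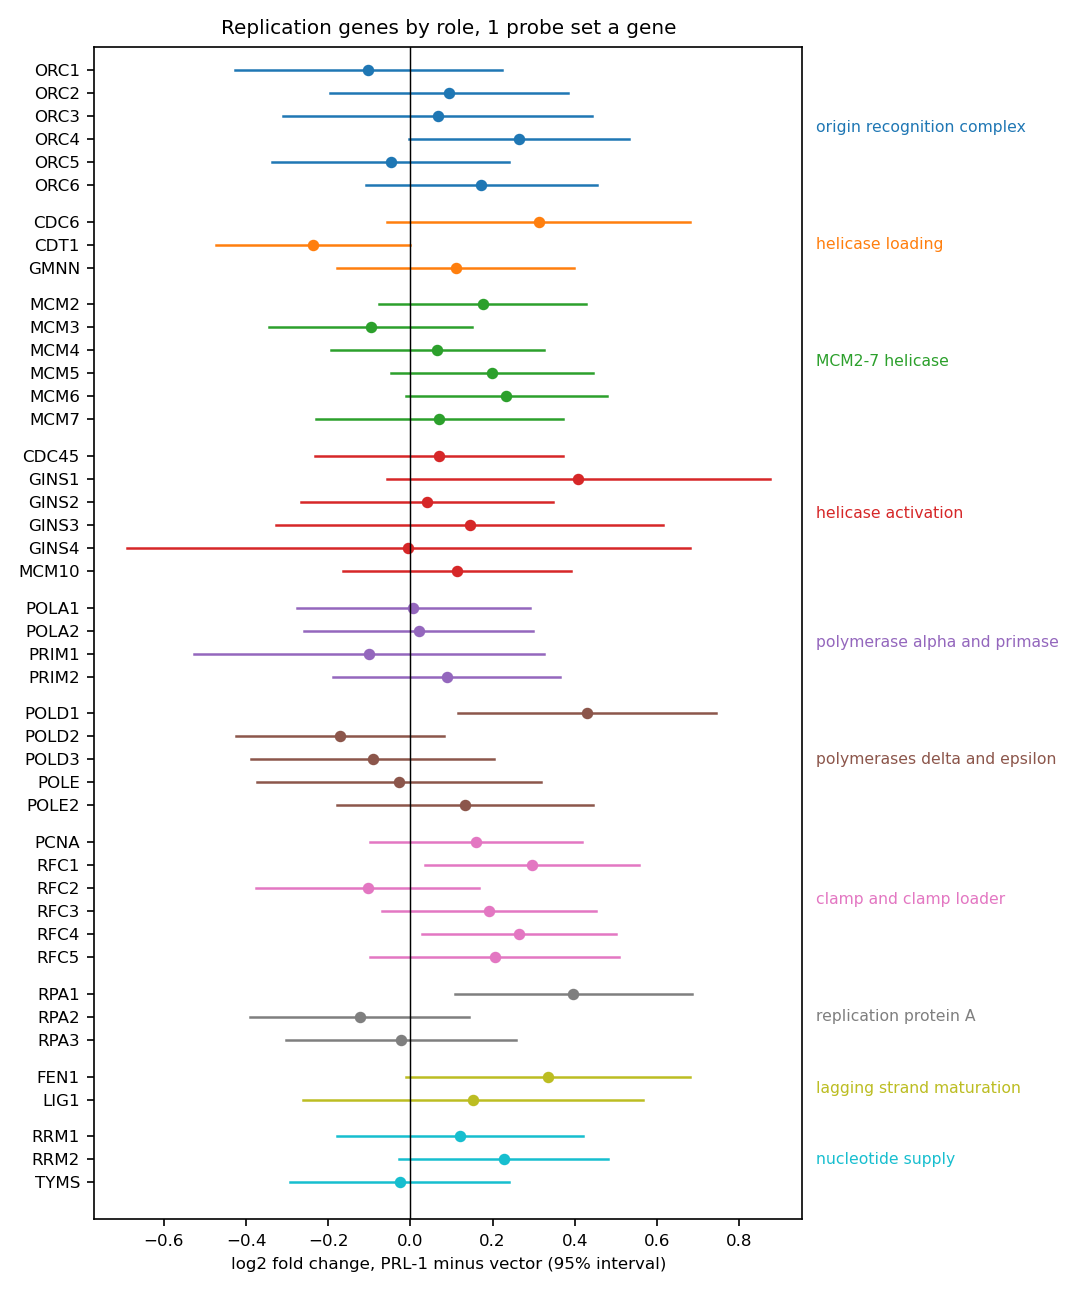
Log2 fold change, PRL-1 minus vector, of the probe set that stands for each of the 44 genes (x axis), with genes grouped by role down the page. Points are limma estimates from 2 PRL-1 and 3 vector arrays and lines are 95% intervals, which are unadjusted; most points lie right of 0 and none reaches 0.5.

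Taken array by array, the list's median was highest on PRL-1 replicate 1, while PRL-1 replicate 2 was close to vector replicates 1 and 2. Each gene's log2 signal was set against its mean over the 3 vector arrays. The median over the 44 genes was 0.18 on PRL-1 replicate 1, with 33 genes above 0, and 0.08 on PRL-1 replicate 2, with 29 above 0. On the vector arrays it was 0.05 with 28 genes above 0, 0.04 with 28, and -0.06 with 11, for replicates 1, 2 and 3. Over all tested genes the medians were -0.04 and -0.00 on PRL-1 replicates 1 and 2, and -0.01, -0.01 and 0.05 on vector replicates 1, 2 and 3, opposite in sign to the replication median on each of the 5 arrays.

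Vector replicate 3 was the low array for replication genes. It gave the lowest of the 3 vector signals for 25 of 44 genes (56.8%, beside 35.7% of all genes) and the highest for 11 (25%, beside 47.1%). Without it, 31 genes were above 0, beside 47.8% of all genes, and the median was 0.08, beside -0.01 over all genes. After quantile normalization, which gives all arrays the same distribution, the replication medians were 0.14 and 0.07 on PRL-1 replicates 1 and 2 and 0.02, 0.01 and -0.02 on vector replicates 1, 2 and 3. The list's median was thus higher on both PRL-1 arrays than on any vector array on either scale, with PRL-1 replicate 2 by the smaller margin.

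**Figure D2:**
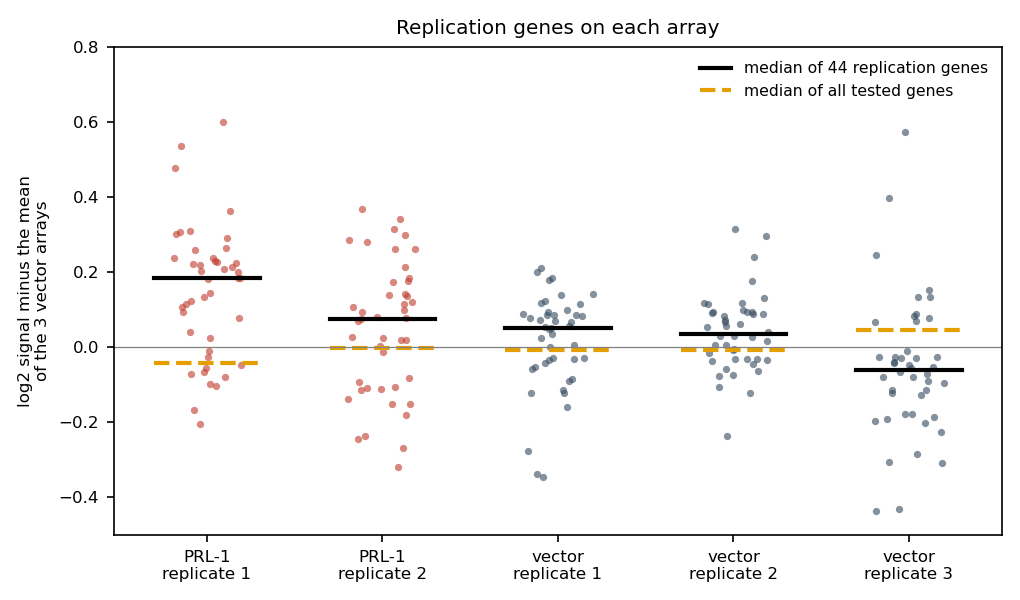
Log2 signal minus the mean of the 3 vector arrays (y axis) for the 44 replication genes on each of 5 arrays, PRL-1 arrays on the left. Points are genes, black bars their medians and dashed bars the medians of all tested genes; the black bar is at 0.18 on PRL-1 replicate 1 and at -0.06 on vector replicate 3.

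The origin recognition complex, which binds origins and starts licensing, showed small differences of either sign. Its 6 genes had 4 values above 0 and 2 below, with a median of 0.08, and 0.0002 without vector replicate 3. ORC4 gave 2012 and 2244 on PRL-1 arrays, against 1706, 1888 and 1720.5 on vector arrays. Both PRL-1 signals lay above all vector signals, and the log2 fold change was 0.26 ± 0.117 (SE, limma adjusted p = 0.518). ORC1, the subunit whose protein level follows the cell cycle in human cells, gave 578 and 519 on PRL-1 arrays, against 574, 574 and 616 on vector arrays. Those groups overlapped, at a log2 fold change of -0.10 (adjusted p = 0.850). ORC6 was at 0.17, ORC2 at 0.09, ORC3 at 0.07 and ORC5 at -0.05 on the log2 scale, and the 9 tested probe sets of the complex had adjusted p from 0.518 to 0.932.

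Of the helicase loaders CDC6 was higher and CDT1 lower in HEK293-PRL-1 cells, neither past the test. CDT1 brings MCM2-7 to origins and is the target of geminin. Its probe set 209832_s_at gave 1629 and 1561 on PRL-1 arrays, against 2265, 2368 and 3635 on vector arrays. All PRL-1 signals were below all vector signals, and vector replicate 3 was the highest by a wide margin. This was a log2 fold change of -0.76 ± 0.196 (SE), a ratio of 0.592, with limma adjusted p = 0.276. Without vector replicate 3 it was -0.54 with adjusted p = 0.0345, the only replication probe set of 79 called in that fit, where 0.926% of all probe sets were called. Across all alternatives tried, the adjusted p of this probe set lay between 0.0288 and 0.938.

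The brighter CDT1 probe set 228868_x_at gave 2788 and 2670.2 on PRL-1 arrays, against 3292, 3197 and 3157 on vector arrays. The groups were again apart, at a log2 fold change of -0.24 with a 95% interval of -0.47 to -0.0005 (limma adjusted p = 0.513). CDT1 was thus lower on both of its probe sets by unlike amounts, a difference that was not tested. CDC6, the ATPase that works with CDT1, gave 1940.2 and 1808 on PRL-1 arrays, against 1747, 1608 and 1221 on vector arrays. Its groups did not overlap, with the lowest signal on vector replicate 3. CDC6 was at a log2 fold change of 0.31 ± 0.162 (SE, adjusted p = 0.579), and 0.16 without that array. GMNN, the inhibitor of CDT1, was at 0.11 (adjusted p = 0.814), and at 0.01 without vector replicate 3.

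The 6 subunits of the MCM2-7 helicase, the ring that unwinds DNA ahead of the fork, had 5 values above 0 and a median of 0.12, and 0.15 without vector replicate 3. MCM6 gave 10742 and 9926 on PRL-1 arrays, against 8622, 8526 and 9227 on vector arrays. Both PRL-1 arrays were above all vector arrays, at a log2 fold change of 0.23 ± 0.107 (SE, limma adjusted p = 0.525). MCM5 at 0.20 and MCM2 at 0.18 also had groups that did not overlap. MCM3 gave 6648 and 6502 on PRL-1 arrays, against 7035, 7505 and 6577 on vector arrays. Its groups overlapped through vector replicate 3, at a log2 fold change of -0.10 (adjusted p = 0.813). MCM7 was at 0.07.

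MCM4 was read by 5 probe sets that did not share a sign. The brightest, 222036_s_at, gave 5784 and 6129 on PRL-1 arrays, against 5714, 6163 and 5230.3 on vector arrays. These groups overlapped (log2 fold change 0.07, adjusted p = 0.885). Probe sets 212141_at, 212142_at and 222037_at gave 0.10, 0.26 and 0.06. The dim 242479_s_at, with 41.6 and 97.1 on PRL-1 arrays and 112, 36.9 and 112 on vector arrays, gave -0.28 with a standard error of 0.748. The 13 tested MCM2-7 probe sets had adjusted p from 0.525 to 0.932.

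Among the factors that activate the helicase, the values of GINS1, GINS3 and GINS4 moved when single arrays were left out. The 6 genes had 5 values above 0 and a median of 0.09. On their brightest probe sets no groups lay apart, where 12.8% of all probe sets had PRL-1 above and 16.1% below. GINS1 gave 4205 and 3523 on PRL-1 arrays, against 3139.6, 3609 and 2151 on vector arrays. The groups overlapped, with vector replicate 3 far below the rest. The log2 fold change of GINS1 was 0.41 ± 0.205 (SE, limma adjusted p = 0.564), and 0.19 without that array. GINS3 was at 0.14, and at -0.07 without the same array.

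GINS4 gave 496 and 321 on PRL-1 arrays, against 316, 339.8 and 596 on vector arrays. The spread within each group exceeded the difference between them, at a log2 fold change of -0.005 ± 0.301 (SE). It was -0.32 without PRL-1 replicate 1, 0.31 without PRL-1 replicate 2 and 0.28 without vector replicate 3. MCM10, which binds the assembled helicase, was at 0.11, CDC45 at 0.07 and GINS2 at 0.04. Over the 14 tested probe sets of the activation factors the adjusted p lay between 0.564 and 0.999.

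Polymerase alpha and primase, which start every strand with a short primer, were close to level between the lines. Their 4 genes had a median of 0.01. PRIM2, the large primase subunit, gave 1303 and 1323 on PRL-1 arrays, against 1339, 1203 and 1169 on vector arrays. PRIM1, the catalytic primase subunit, gave 2749 and 2558 on PRL-1 arrays, against 2348, 2611 and 3746 on vector arrays. Groups overlapped for both, at log2 fold changes of 0.09 and -0.10, and that of PRIM1 was 0.10 without vector replicate 3.

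POLA1, the catalytic subunit of polymerase alpha, was at 0.01 with a 95% interval of -0.28 to 0.29. POLA2 gave 1129.9 and 1252 on PRL-1 arrays, against 1193, 1219 and 1109.7 on vector arrays, by probe set 204441_s_at. Its dimmer probe set 244575_at gave 202 and 205 on PRL-1 arrays, against 257, 203 and 326 on vector arrays. Groups overlapped on both, at log2 fold changes of 0.02 and -0.34 (limma adjusted p = 0.972 and 0.702), and that of 204441_s_at was below 0 without PRL-1 replicate 2 (-0.05) or vector replicate 3 (-0.02).

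The polymerases that extend the strands held the highest gene value of the list beside 3 values below 0. POLD1, the catalytic subunit of polymerase delta, gave 1809 and 1432 on PRL-1 arrays, against 1268, 1148 and 1171 on vector arrays. Both PRL-1 signals were above all vector signals, and PRL-1 replicate 1 was the highest. The log2 fold change was 0.43 ± 0.138 (SE), a ratio of 1.35, with limma adjusted p = 0.375. With PRL-1 replicate 1 left out it was 0.26.

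POLD2, an accessory subunit of the same enzyme, gave 4413 and 3989 on PRL-1 arrays, against 4457, 4745 and 4990.3 on vector arrays. It lay on the other side, both PRL-1 signals below all vector signals, at a log2 fold change of -0.17 (adjusted p = 0.665). POLD3, a further subunit, gave 753 and 732 on PRL-1 arrays, against 761, 775 and 841 on vector arrays. Those groups did not overlap either, though they were close (log2 fold change -0.09, adjusted p = 0.853). A dim POLD3 probe set, 239816_at, gave 151 and 93.1 on PRL-1 arrays, against 157, 25.9 and 29.3 on vector arrays, and its log2 fold change of 1.27 had a standard error of 0.876. POLE, the catalytic subunit of polymerase epsilon, was at -0.03 and its partner POLE2 at 0.13, both with overlapping groups.

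For 5 of the 6 genes of the clamp and its loader both PRL-1 arrays read above all vector arrays, the most of any role. This was so for 15 of all 44 genes and for 12.8% of all tested probe sets. The roles were not tested against each other. The median log2 fold change of the clamp and its loader was 0.20, and 0.14 without vector replicate 3. PCNA, the clamp that tethers polymerases to DNA, gave 14093.5 and 13692 on PRL-1 arrays, against 11674, 13501 and 12186 on vector arrays. The groups came close without overlapping. PCNA was at a log2 fold change of 0.16 with a 95% interval of -0.10 to 0.42 (limma adjusted p = 0.691).

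RFC1, the large subunit of the loader, gave 1567 and 1545 on PRL-1 arrays, against 1329, 1239 and 1234 on vector arrays. Its groups were well apart relative to their spread, at 0.30 ± 0.115 (SE, adjusted p = 0.455). RFC4 was at 0.26 (adjusted p = 0.460) and RFC5 at 0.20 (adjusted p = 0.667), with all 3 RFC5 probe sets between 0.20 and 0.26. RFC2 gave 2778 and 2773 on PRL-1 arrays, against 2743, 2919 and 3318 on vector arrays. It was the exception of the complex, with overlapping groups and a log2 fold change of -0.10 (adjusted p = 0.814).

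RFC3, a small subunit, had the smallest adjusted p of the list on its probe set 204128_s_at. That probe set gave 2693 and 3146 on PRL-1 arrays, against 2162, 1921 and 1939.95 on vector arrays. The groups were apart, at a log2 fold change of 0.54 ± 0.122 (SE), a ratio of 1.45, with limma adjusted p = 0.225, and 0.0697 without vector replicate 3. Over all alternatives tried the adjusted p ran between 0.0530 and 0.807, so this probe set was called in none of them. The brighter 204127_at gave 5212 and 4717 on PRL-1 arrays, against 4600.3, 4433 and 4014 on vector arrays. It too was apart, by less (log2 fold change 0.19, adjusted p = 0.629). The dim 231119_at gave 169.99 and 238 on PRL-1 arrays, against 144, 207 and 332 on vector arrays, and overlapped at -0.09.

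**Figure D3:**
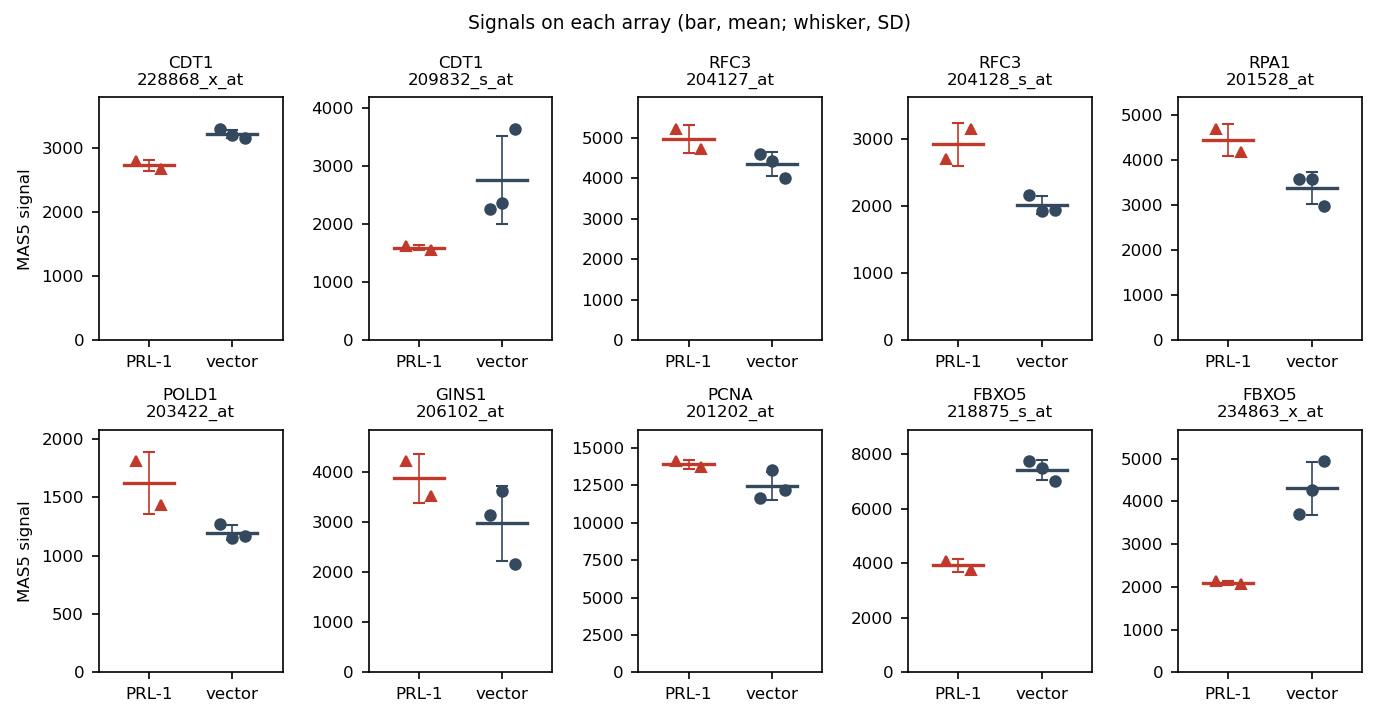
MAS5 signal on a linear axis (y axis) of 10 probe sets on each array, with HEK293-PRL-1 (triangles, 2 arrays) left of HEK293-vector (circles, 3 arrays) in each panel. Bars are means and whiskers SD; the 2 FBXO5 panels show the widest gaps, with PRL-1 signals of 2058 to 4091, and in the CDT1 209832_s_at panel vector replicate 3 stands at 3635.

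Replication protein A, the trimer that coats single-stranded DNA, was uneven across its subunits. RPA1, the large subunit, gave 4694 and 4194 on PRL-1 arrays, against 3581, 3592 and 2979 on vector arrays. Both PRL-1 signals were above all vector signals, at a log2 fold change of 0.40 ± 0.127 (SE, limma adjusted p = 0.374), and 0.31 without vector replicate 3. Its 3 probe sets lay between 0.26 and 0.52. RPA2 gave 4760.2 and 4064 on PRL-1 arrays, against 4952, 4932 and 4502 on vector arrays. RPA2 overlapped at -0.12 (adjusted p = 0.769), and RPA3 at -0.02 (adjusted p = 0.967), so the trimer's other two subunits had values below 0.

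Both genes of the lagging strand were above 0 without passing the test. FEN1, the flap endonuclease that trims primers off Okazaki fragments, gave 3065 and 3214 on PRL-1 arrays, against 2859, 2634 and 2043 on vector arrays. The groups were apart, with vector replicate 3 the lowest. FEN1 was at a log2 fold change of 0.34 ± 0.152 (SE, limma adjusted p = 0.521), and 0.19 without that array, and its other probe set gave 0.33. LIG1, the ligase that seals the fragments, gave 1115 and 1006 on PRL-1 arrays, against 750.03, 1021 and 1129.5 on vector arrays. Its groups overlapped at 0.15 (adjusted p = 0.823), with -0.02 without vector replicate 1 and 0.27 without vector replicate 3.

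Nucleotide supply followed the same pattern of small values. RRM2, the regulated subunit of ribonucleotide reductase, gave 9935 and 9765 on PRL-1 arrays, against 8742, 8855 and 7703 on vector arrays. Both PRL-1 signals were above all vector signals, at a log2 fold change of 0.23 ± 0.112 (SE, limma adjusted p = 0.555). RRM1, its catalytic partner, was at 0.12 (adjusted p = 0.804).

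TYMS, the thymidylate synthase that makes dTMP, gave 17288 and 15760.5 on PRL-1 arrays, against 15519, 17167 and 17804 on vector arrays. These groups overlapped, at a log2 fold change of -0.03 (adjusted p = 0.962), which was 0.04 without PRL-1 replicate 2 and 0.02 without vector replicate 3. By probe set 1554696_s_at TYMS gave 5533 and 5891 on PRL-1 arrays, against 4630.1, 4849 and 5353 on vector arrays. That probe set put the groups apart, at 0.21 (adjusted p = 0.591). The dim 217684_at gave 189 and 25.5 on PRL-1 arrays, against 157, 102 and 141 on vector arrays, and its log2 fold change of -0.92 had a standard error of 0.761.

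Genes with more than 1 tested probe set numbered 24. MCM4, POLA2, POLD3, RFC3 and TYMS had probe sets of opposite sign more than 0.3 apart on the log2 scale, and in each a dim probe set lay at one end. CDT1 had the widest gap among genes whose probe sets shared a sign, -0.76 and -0.24.

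Neighbouring gene groups gave the setting. Of 41 other replication factors (checkpoint, chromatin assembly, kinase and nucleotide genes) 39 were measured, 26 above 0 and 13 below, with a median log2 fold change of 0.09, and 0.05 without vector replicate 3. Of their 67 probe sets limma called 0, and 10 had an unadjusted p of 0.05 or less (14.9%, beside 9.72% of all probe sets). TOPBP1, which acts in helicase activation and activates the checkpoint kinase ATR, gave 3318 and 3007 on PRL-1 arrays, against 2362, 2164 and 1836 on vector arrays. Its groups were apart, at 0.58 ± 0.135 (SE, limma adjusted p = 0.232). TK1, the thymidine kinase of the salvage pathway, was at 0.46 (202338_at, adjusted p = 0.288) and DUT, which clears dUTP, at 0.37 (208955_at, adjusted p = 0.420). Neither is the brightest probe set of its gene, the one used in the counts and medians.

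The genes that control entry into S phase held the only called gene of these lists, FBXO5, which fell in HEK293-PRL-1 cells. FBXO5 (EMI1) inhibits the anaphase-promoting complex, the ubiquitin ligase that degrades geminin. Its probe set 218875_s_at gave 4091 and 3766 on PRL-1 arrays, against 7737, 7474 and 7016 on vector arrays. By 234863_x_at FBXO5 gave 2127 and 2058 on PRL-1 arrays, against 3711, 4271 and 4937 on vector arrays. On both probe sets the groups were far apart. The log2 fold changes were -0.92 ± 0.108 and -1.03 ± 0.136 (SE), ratios of 0.530 and 0.489, with limma adjusted p = 0.0156 and 0.0292. The test named in the methods gave neither of these calls (adjusted p = 0.275 and 0.387). Both calls were lost when either PRL-1 array was left out (adjusted p from 0.295 to 0.413), without vector replicate 2 (0.0937 and 0.110) and without the intensity trend in the variance (0.273 and 0.350). That of 218875_s_at was also lost without vector replicate 1 (0.0607), and over all alternatives adjusted p ran from 0.000977 to 0.413. GMNN mRNA, given above, was at 0.11, and the arrays do not read geminin protein.

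Of the 32 genes of that list 31 were measured, 22 above 0 and 9 below, with a median of 0.20, and 0.08 without vector replicate 3. Of its 66 probe sets 0 were called higher and 2 lower, those of FBXO5, and 14 had an unadjusted p of 0.05 or less (21.2%, beside 9.72% of all). TFDP1 and TFDP2, the partners of E2F proteins, were at 0.53 (212330_at, adjusted p = 0.207) and 0.75 (226157_at, adjusted p = 0.229), uncalled. The TFDP2 probe set is not the brightest of its gene. Mitotic genes did not share the tilt: all 40 were measured, 18 above 0 and 22 below, with a median of -0.03, and -0.05 without vector replicate 3. Of their 68 probe sets limma called 0, and 6 had an unadjusted p of 0.05 or less (8.82%, beside 9.72% of all). By 208079_s_at, not its brightest probe set, AURKA, a spindle kinase, gave 4051 and 3818 on PRL-1 arrays, against 2850.35, 2760.5 and 2434 on vector arrays. Its groups were apart, at a log2 fold change of 0.56 (adjusted p = 0.198) and, without vector replicate 3, of 0.49 (adjusted p = 0.0381, over alternatives 0.0323 to 0.913). ECT2, which starts cytokinesis, was at 0.34 (adjusted p = 0.448) and NDC80, a kinetochore protein, at -0.34 (adjusted p = 0.455). Differences between these lists were not tested.

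**Figure D4:**
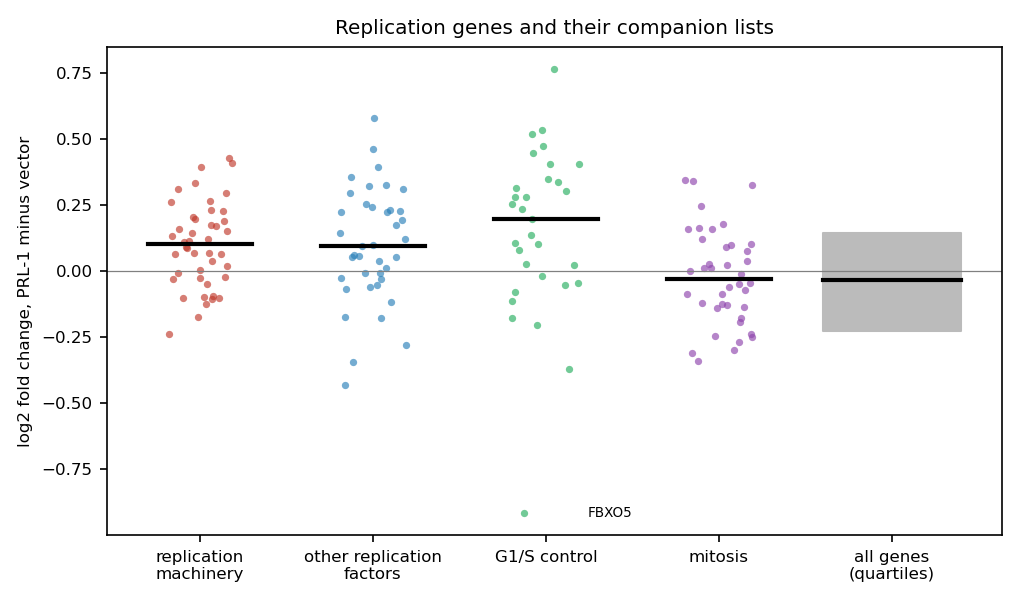
Log2 fold change, PRL-1 minus vector (y axis), of genes in 4 lists, 1 probe set a gene, with black bars at the medians (0.10, 0.09, 0.20 and -0.03 from left to right). The grey block spans the quartiles of all 14546 genes, -0.23 to 0.14; FBXO5 is the labelled point at -0.92.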

How the data were processed

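Total RNA of HEK293-PRL-1 (n = 2) and HEK293-vector (n = 3) cultures was hybridized to 1 array each. The deposited values are linear MAS5 signals, 1 intensity for each probe set, which the authors computed with Bioconductor's affy package at its defaults. MAS5 corrects each probe by its mismatch partner, averages the probes of a set robustly and scales each array. The mean after trimming was 500 on all 5 arrays.

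Signals were taken to log2 and all 33818 probe sets at 100 or more on at least 2 arrays were fitted together with limma 3.58.1 in R 4.3.3 (group as the only term, intensity trend, two-sided). Adjusted p is Benjamini-Hochberg over all of them, and 0.05 was the limit of a call. Of the probe sets 41091 had 1 gene symbol, 1801 several, 11721 were not in the annotation used and 62 were controls. Intervals are 95% and unadjusted. The fit was also run on simulated signals with independent noise and no outlying array, so that run does not bear on vector replicate 3.

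The 44 genes, the other lists and the alternatives were chosen with earlier results of these data known. Among the 44 genes, array values are given for the highest and lowest of each role, PCNA, probe sets called when an array was left out, and genes whose probe sets differed in sign by over 0.3. The 3 genes with the smallest adjusted p are named from each neighbouring list. Each is given by its probe set with the smallest p, which for TK1, DUT, TFDP2 and AURKA was not the brightest. The number of arrays limits the precision, and presence calls were not used here. Fits with a single PRL-1 array take its spread from the vector arrays.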

Additional observations from a re-analysis of the deposited data

How the results depend on the processing

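The count of 0 replication probe sets called held with no filter, with a filter at 200, on log2(signal + 32), after quantile normalization or median centring, without the intensity trend, with array weights and by the methods' t-test. With each array left out in turn it was 0 to 1, the 1 being CDT1 (209832_s_at) without vector replicate 3. Over all probe sets the count of 65 was 9 without the intensity trend, 275 with array weights, 0 by the methods' t-test and 11 to 313 with an array left out, the 313 without vector replicate 3; the cause was not tested. Deviations of same-numbered arrays from their group means correlated at r = 0.06 and -0.06. With 2 PRL-1 arrays their deviations mirror each other, so these values cannot decide whether the numbers pair cultures. With the replicate number as a replicate block, which leaves vector replicate 3 without a partner, 448 probe sets and 1 replication probe set (CDT1, adjusted p = 0.0288) were called, and TOPBP1, TFDP1, TFDP2 and AURKA gained a call (adjusted p = 0.0357, 0.0328, 0.0231 and 0.0323).

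The replication median of 0.10 was 0.075 to 0.185 with an array left out, the lowest without vector replicate 3 and the highest without PRL-1 replicate 2. Without probe sets that can share sequence between transcripts (_s_at and _x_at), 20 of 33 genes were above 0, in place of 31 of 44; fewer genes remained, and the cause of the lower share was not tested. Of 54 single probe sets followed, 0 changed sign with a call. By limma the FBXO5 call of 218875_s_at was also lost after median centring (adjusted p = 0.0799). That of 234863_x_at was also lost with no filter (0.0627) and after quantile normalization (0.0557).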
